A study of Mus musculus with 16 samples.

Results

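Medium conditioned by the mouse melanoma line B16F10, called supernatant here, was compared with fresh medium lacking methionine as the culture medium of activated mouse CD8+ T cells. These are the 2 media of the study to which no methionine was added. The comparison takes 8 of the study's 16 RNA-seq libraries, 4 per medium, and the 12438 of 17159 genes of the depth-normalized table with a mean of at least 10 over these 8 libraries. All 4 groups of the study hold CD8+ T cells of C57BL/6 background that were stimulated through CD3 and CD28 for 2 days and then spent 36 h in their medium. The groups are fresh medium without methionine, complete fresh medium (with methionine), B16F10 supernatant and supplemented supernatant (with methionine added), with 4 libraries each. Separate animals or cultures are not stated for the 4 libraries of a medium, so p-values measure the spread between libraries, which may be technical. The methionine content of the supernatant is not given in the sources used here. The effect of any methionine left in it and the effect of whatever else the tumour cells took up or released cannot be told apart in this comparison.

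Methionine is an essential amino acid that cells use for protein synthesis and, as S-adenosylmethionine, for methylation and polyamine synthesis. T cells take it up in quantity after activation. A tumour-conditioned medium is depleted of nutrients, enriched in metabolites such as lactate, and carries proteins that the tumour cells secrete. Sterol supply sets the activity of SREBP2, which drives the cholesterol synthesis genes. HIF-1 drives glycolytic genes, and E2F factors drive the genes of DNA replication.

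The labelled cell type was reflected in the reads. Cd8a, a chain of the CD8 co-receptor, ranged from 30349 to 37519 depth-normalized reads over the 8 libraries, and Cd4 from 146 to 200. Recovered depth was 34.6 M ± 2.10 reads (SD, n = 4) in methionine-free fresh medium and 32.8 M ± 6.12 (SD, n = 4) in supernatant. The first principal component of the 8 libraries held 35.6% of the variance and separated the media. The second held 17.3%, and supernatant library 1 stood apart on it at 20.1 against -9.72 to 2.78 for the other libraries. List counts that moved by over 1.5 times when 1 library was left out are given both ways. Sums of marker reads include genes too low to be tested. The marker counts stand beside 15.7% of all 12438 tested genes called higher in supernatant and 15.1% called lower. The summed level of 5 B cell markers was 778 to 966 in fresh medium and 731 to 858 in supernatant. That of 7 myeloid markers was 241 to 297 and 271 to 296, and that of 4 CD4 T cell markers 3976 to 4121 and 4101 to 4610. Of the 13 tested among them, 1 was called, Cd68, which was lower. That call was lost without any 1 of fresh-medium libraries 0, 1 and 3 or supernatant libraries 2 and 3. Without supernatant library 0, 2 CD4 T cell markers were called higher, without fresh-medium library 1 it was 1, and without fresh-medium library 0 or supernatant library 2 a myeloid marker was. The 6 NK cell markers summed to 448 to 488 in fresh medium and 626 to 804 in supernatant, and 3 of the 5 tested were called higher. Klri2, given below, made up most of these sums. The call of Klrb1b was lost without supernatant library 2. Of the melanoma markers, Mlana, Tyrp1 and Dct, which define pigment cells, had at most 7.14, 3.52 and 2.04 reads in any of the 8 libraries. The 9 melanoma markers summed to 352 to 385 in fresh medium and 294 to 345 in supernatant. Of the 4 tested, Pmel was called lower and Tyr higher. The call of Tyr was lost without any 1 of fresh-medium libraries 2 and 3 or supernatant libraries 1, 2 and 3. The 5 fibroblast and erythroid markers summed to 120 to 164 and 81.7 to 114. Of the 3 tested, 1 was called lower and Col1a2 higher. The call of Col1a2 was lost without any 1 of fresh-medium libraries 0, 1 and 3 or supernatant libraries 0, 2 and 3.

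The media differed in many genes by small amounts. Of the 12438 genes, 3824 were called (30.7%) at a limma adjusted p below 0.05, 1952 higher in supernatant (15.7%) and 1872 lower (15.1%). The median absolute change of called genes was 1.14-fold, and the 90th percentile was 1.39-fold. A called change of at least 2-fold was seen in 44 genes (0.354%), 28 higher and 16 lower. The libraries of the 2 media did not overlap in 3583 genes (28.8%). The median change over all genes tested was 0.0031 on the log2 scale, and every list below is read against that value and the called shares above. Without supernatant library 1, 4021 genes were called.

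**Figure D1:**
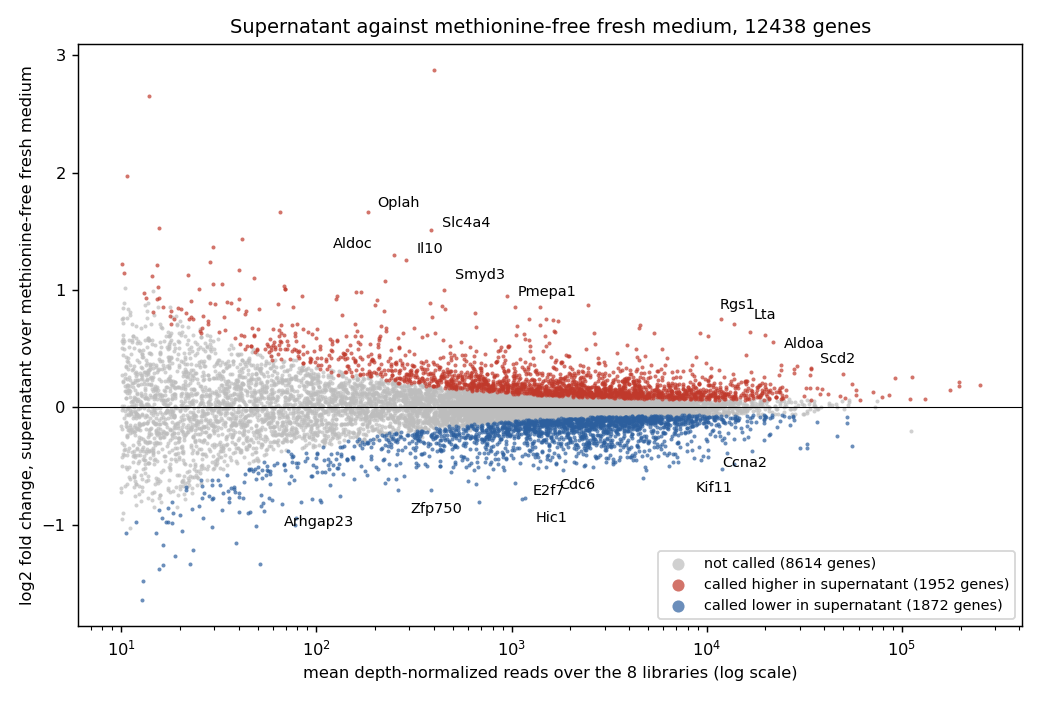
Each point is 1 of 12438 genes, with its mean depth-normalized reads over the 8 libraries on a log axis and its log2 fold change of supernatant over methionine-free fresh medium. Genes above 1000 reads lie within 1 log2 unit of 0.

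Genes of cholesterol supply were higher in supernatant. Of the 24 tested members of the list for cholesterol synthesis and uptake, 17 rose and none fell, with a median log2 change of 0.315, and without supernatant library 1 the counts were 19 and 0. Hmgcs1, which makes HMG-CoA at the head of the pathway, was at 1297, 1256, 1287 and 1369 reads in fresh medium and at 2004, 2084, 2078 and 1962 in supernatant. Its groups did not overlap, and its log2 change was 0.64 ± 0.04 (SE), with a limma adjusted p of 5.6e-14. Mvd, which makes isopentenyl diphosphate, was at 333, 366, 363 and 363 reads in fresh medium and at 495, 599, 508 and 522 in supernatant, a log2 change of 0.57. Among members chosen after their values were seen, the regulators Srebf2 and Insig1 had log2 changes of 0.49 and 0.52, and Sqle, which makes squalene epoxide, one of 0.38.

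Sterol efflux genes split. Of 8 genes of the LXR list, 3 rose and 3 fell. Abca1, the cholesterol exporter, was at 769, 855, 904 and 805 reads in fresh medium and at 726, 659, 650 and 630 in supernatant, so that all supernatant libraries lay lower, and its log2 value fell by 0.32 (limma adjusted p = 5.0e-05). Lpcat3, which remodels phospholipids, had a log2 change of 0.21.

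Fatty acid synthesis followed in part. In the list for synthesis and desaturation, 10 of 19 genes rose and 1 fell (Elovl5), with a median of 0.11. Scd1, the main desaturase, was at 1107, 1131, 1208 and 1047 reads in fresh medium and at 1902, 1821, 1868 and 1967 in supernatant, and its log2 change of 0.75 ± 0.04 (SE) had a limma adjusted p of 1.6e-14. Its relative Scd2, the more abundant of the pair in reads, was at 29638 reads in fresh medium library 0 and 38282 in supernatant library 0, a log2 change of 0.33. Acsl3, which activates fatty acids, had 150 to 174 reads in fresh medium and 246 to 311 in supernatant. Of 20 genes for fatty acid uptake and oxidation, 5 rose and 2 fell, with Cpt1a, the carnitine transferase of mitochondrial import, at 0.23 and Fabp5 at -0.15. The rises were 3 without fresh-medium library 1 or supernatant library 0 or 2, and the falls 1 without fresh-medium library 2.

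Glycolytic genes rose nearly together. Of 20 tested genes for glycolysis and lactate transport, 17 rose and none fell, with a median of 0.231, and without supernatant library 1 the counts were 17 and 1. Aldoc, an aldolase, was at 148, 109, 161 and 166 reads in fresh medium and at 374, 331, 341 and 376 in supernatant. Its groups were well apart, and the log2 change was 1.30 ± 0.10 (SE), with a limma adjusted p of 3.2e-11. Slc16a3, the lactate exporter MCT4, was at 1109, 907, 960 and 1024 reads in fresh medium and at 1818, 1840, 1772 and 1774 in supernatant, a log2 change of 0.85 (limma adjusted p = 1.0e-14). Tpi1, the triose phosphate isomerase, had 6875 to 7685 reads in fresh medium and 10650 to 11734 in supernatant, and Aldoa, the abundant aldolase, 16777 to 18409 and 24908 to 27921. Among members chosen after their values were seen, the glucose transporter Slc2a1 changed by 0.36, Pgk1 by 0.44 and Ldha by 0.32, while Hk2, the inducible hexokinase, was between 5155 and 5690 reads in all 8 libraries and was not called.

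HIF-1 controls many genes of both lists, but the hypoxia list shares no gene with the glycolysis list. Of 19 tested genes, 15 rose and none fell, with a median of 0.187. Bnip3, a mitophagy receptor, was at 1146, 1170, 1194 and 1209 reads in fresh medium and at 1815, 1649, 1856 and 1871 in supernatant, a log2 change of 0.61 ± 0.04 (SE) with a limma adjusted p of 1.3e-12. Ak4, a mitochondrial adenylate kinase, was at 314, 227, 330 and 287 reads in fresh medium and at 505, 559, 459 and 446 in supernatant, a log2 change of 0.77. In both genes every supernatant library lay above every fresh-medium library. Ankrd37 and P4ha2, a collagen prolyl hydroxylase subunit, had log2 changes of 0.45 and 0.37. Vegfa and Hif1a, chosen after their values were seen, had 0.28 and 0.13.

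The window before the start of Slc16a3 is shown because, of the 2 lists, this gene had the largest difference between the 2 supernatant effects. These are the effects without and with added methionine. The window also holds the core letters ACGTG of the HIF binding motif. These letters are also part of the E-box CACGTG. The 250 bases come from RefSeq in GRCm38.p6 (chr11:120948817-120949066, plus strand, inside the gene bounds of GENCODE vM21), and capitals mark the matches, which begin 27 and 14 bases before the RefSeq start.
Slc16a3: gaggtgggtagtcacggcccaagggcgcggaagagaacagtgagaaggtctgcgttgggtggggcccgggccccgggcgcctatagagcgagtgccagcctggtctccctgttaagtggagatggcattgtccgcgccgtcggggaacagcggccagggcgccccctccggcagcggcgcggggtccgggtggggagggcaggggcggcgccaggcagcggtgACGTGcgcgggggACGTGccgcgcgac
On either strand ACGTG was found in 10 of the 19 glycolysis genes with a window (52.6%) and in 12 of 16 hypoxia genes (75.0%), against 18.5% of all 27025 genes with a window and 25.3% of the tested genes with one. The counts include members that were not called, such as Hk2, so the shares describe the lists and not the change between the media. A match is a run of letters and not evidence of binding.

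Mitochondrial respiration genes did not move with glycolysis. Of 40 nuclear genes of oxidative phosphorylation, 2 rose, 2 fell and 36 were not called, with changes between -0.17 and 0.13. Atp5c1, the ATP synthase gamma subunit, had the highest of the called changes at 0.13, and Ndufs7, a complex I subunit, the lowest at -0.17. The rises were 1 without fresh-medium library 0 or 1 or supernatant library 2, and the falls 1 without supernatant library 3. In the tricarboxylic acid cycle 7 of 21 genes rose and 2 fell, but 4 rose without fresh-medium library 0 or 1 or supernatant library 3, and 1 fell without any 1 of fresh-medium libraries 1, 2 and 3 or supernatant libraries 2 and 3. Idh1, the cytosolic isocitrate dehydrogenase, had 114 to 150 reads in fresh medium and 163 to 194 in supernatant, and Suclg1 and Idh2 had log2 changes of 0.24 and 0.22.

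**Figure D2:**
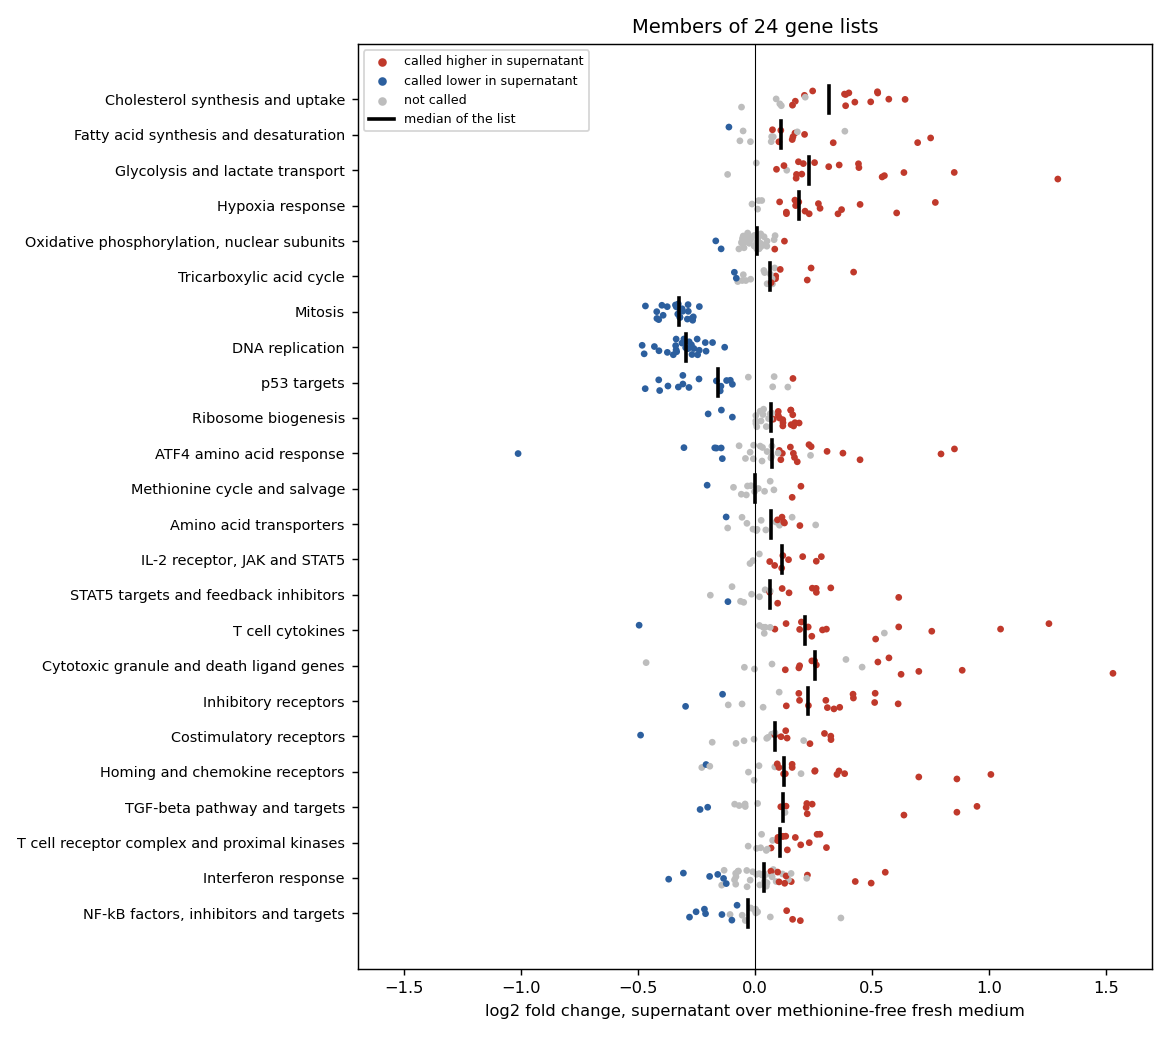
Each point is a tested gene of 1 of 24 lists, placed by its log2 fold change of supernatant over methionine-free fresh medium, with the median of all tested members of the list as a black bar; members not reported here are not drawn. Every mitosis and DNA replication gene drawn lies left of 0, and the points of cholesterol, glycolysis and hypoxia lie mostly to the right.

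Genes of cell division were lower in supernatant without exception. All 23 mitosis genes fell, with a median of -0.326 and changes between -0.47 and -0.24, and the groups did not overlap in any of them. All 25 DNA replication genes fell as well, with a median of -0.297 and no overlap. Neither count changed without supernatant library 1. Birc5, the survivin gene of the chromosomal passenger complex, was at 7693, 7813, 7907 and 7808 reads in fresh medium and at 5819, 5552, 5711 and 5480 in supernatant. Its log2 change was -0.47 ± 0.03 (SE), with a limma adjusted p of 1.6e-14. Ccna2, cyclin A2, was at 11101, 11963, 11924 and 11448 reads in fresh medium and at 8980, 8236, 8788 and 8709 in supernatant, a fall that left a clear gap between the groups. Aurkb, a mitotic kinase, and Kif11, a spindle motor, had log2 changes of -0.42 and -0.41. Mki67, chosen after its values were seen, had 58331 to 65312 reads in fresh medium and 47057 to 50460 in supernatant.

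Cdc6, which loads the replicative helicase, changed most in the replication list. It was at 3801, 3876, 3882 and 3887 reads in fresh medium and at 2790, 2834, 2627 and 2804 in supernatant, a log2 change of -0.48 ± 0.03 (SE) with a limma adjusted p of 2.8e-13. Ccne2, cyclin E2, had a change of -0.47, Uhrf1, which recruits the maintenance DNA methyltransferase, -0.43, and E2f1 itself -0.41. The repressor E2f7 had one of the 12 largest falls among genes averaging 100 reads or more whose groups did not overlap (predicted genes, small RNAs and pseudogenes left out), at 1423, 1498, 1437 and 1350 reads in fresh medium and 784, 919, 768 and 856 in supernatant, a log2 change of -0.78. Mxd3, a Max partner, fell by 0.47. Tyms, thymidylate synthase, was at 2944, 3158, 3206 and 2999.8 reads in fresh medium and at 2334, 2377, 2248 and 2252 in supernatant, a log2 change of -0.42.

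The window before Cdc6 is shown as the replication gene that changed most. It is from RefSeq in GRCm38.p6 (chr11:98907901-98908150, plus strand, inside the gene bounds of GENCODE vM21), and capitals mark 1 match to the E2F letters TTTCCCGC on the other strand, 138 bases before the RefSeq start.
Cdc6: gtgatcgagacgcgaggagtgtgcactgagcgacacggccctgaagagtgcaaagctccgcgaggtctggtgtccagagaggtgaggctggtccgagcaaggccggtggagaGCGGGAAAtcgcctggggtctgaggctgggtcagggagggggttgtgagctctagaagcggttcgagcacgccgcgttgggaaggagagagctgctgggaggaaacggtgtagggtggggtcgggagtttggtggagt
Either TTTCCCGC or TTTGGCGC, on either strand, was found in 5 of 20 replication genes with a window (25%), namely Cdc6, Mcm5, Mcm6, Mcm7 and Pola1. The shares were 1.51% of all genes with a window and 3.04% of the tested ones. The letters TTTGAA of the CHR element were found before 7 of 18 mitosis genes (38.9%), against 18.3% of all and 12.7% of tested genes. The window of Birc5, the mitosis gene given first above, held no match to them. Shares of this kind describe the genes listed and not the change between the media. A match is not evidence of binding.

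p53 target genes fell too. Of 20 tested, 15 were lower and 1, Sesn1, was higher, with a median of -0.157, and the counts were the same without supernatant library 1, while 2 were higher without supernatant library 0. Bbc3, which encodes the pro-death protein PUMA, was at 2524, 2287, 2385 and 2488 reads in fresh medium and at 1674, 1865, 1771 and 1683 in supernatant, a log2 change of -0.47 ± 0.04 (SE) with a limma adjusted p of 7.8e-11. Phlda3, which restrains AKT, had 4999 to 5712 reads in fresh medium and 3730 to 4374 in supernatant, Plk2, a stress kinase, 4554 to 4933 and 3338 to 3795, and Pmaip1, the NOXA gene, 2466 to 2658 and 1933 to 2102. None of the 3 ranges overlapped. Cdkn1a and Mdm2, chosen after their values were seen, had log2 changes of -0.15 and -0.28. In the BCL2 family 3 of 15 genes rose and 4 fell, with Bcl2 itself at 16966 to 17542 reads in fresh medium and 18243 to 19391 in supernatant, a log2 change of 0.15. The falls of that family were 2 without fresh-medium library 0 or 2 or supernatant library 0 or 2.

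**Figure D3:**
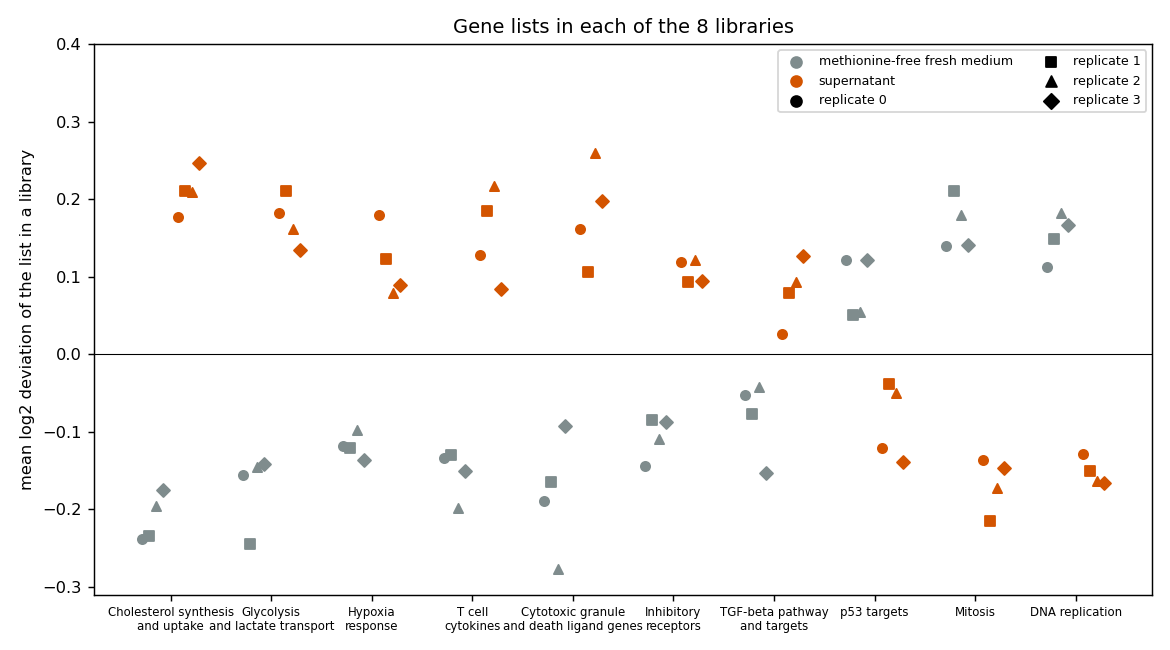
Each marker is 1 library and shows the mean over a list's tested genes of the log2 deviation from the gene's mean over the 8 libraries, for 10 lists. Grey fresh-medium and orange supernatant libraries lie on opposite sides of 0 in all 10. These were picked from the lists of the report, and others, such as chemokines and heat shock, did not separate in this way.

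T cell cytokine genes were mostly higher in supernatant. Of 20 tested cytokine genes, 13 rose and 1 fell, with a median of 0.213. Il10, the anti-inflammatory cytokine, was at 191, 150, 152 and 186 reads in fresh medium and at 353, 421, 436 and 412 in supernatant, a log2 change of 1.26 ± 0.09 (SE), with a limma adjusted p of 3.3e-12. Ifng was at 907, 911, 861 and 984 reads in fresh medium and at 1509, 1580, 1679 and 1424 in supernatant, a log2 change of 0.76 (limma adjusted p = 3.4e-13). Lta, lymphotoxin alpha, was at 15212 to 16300.0 reads in fresh medium and 23158 to 24669 in supernatant, a log2 change of 0.61. Tnf changed less, by 0.23, with 2386 to 2729.8 reads in fresh medium and 2878 to 3125 in supernatant. In each of these 4 genes no supernatant library was as low as a fresh-medium library. Csf1, the macrophage growth factor, was the only cytokine called lower, with 287 to 328 reads in fresh medium and 194 to 223 in supernatant. Il2 itself had at most 1.82 reads in any of the 8 libraries. Of 9 chemokine genes 2 were called higher and 2 lower. The rise of Ccl22 was not called without any 1 of fresh-medium libraries 0 and 1 or supernatant libraries 0, 1 and 3, nor in 1 fit of all 16 libraries, where no chemokine was called higher. Ccl4 had a log2 change of 0.40, and Cxcl10, an interferon-induced chemokine, one of -0.45 that was also not called in that fit.

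Genes of killing were higher too. In the list of granule and death ligand genes 12 of 18 rose and none fell, with a median of 0.259. Prf1, the pore-forming perforin, was at 825, 744, 736 and 847 reads in fresh medium and at 1166, 1160, 1163 and 1046 in supernatant, and its log2 change of 0.53 ± 0.05 (SE) had a limma adjusted p of 2.4e-09. Ctsw, a cathepsin of cytotoxic cells, was at 3469, 3588, 3337 and 3450 reads in fresh medium and at 5583, 5452, 5703 and 5762 in supernatant, a log2 change of 0.70. Gzmb, at 100260 to 106580 reads in fresh medium and 118080 to 126510 in supernatant, changed by 0.26. Gzmc had 869 to 957 reads and then 1305 to 1525, and Gzmd, with a log2 change of 1.53, stayed at or below 35.2 reads. Gzmc and Gzmd have near-identical relatives with which reads may be shared, so their split is uncertain. NK cell markers were also higher, as given above, with Klri2, a lectin-like receptor, at 306 to 330 reads in fresh medium and 454 to 545 in supernatant. Ncr1, the defining NK cell receptor, had 6.27 to 16.3 and 11.7 to 15.9 reads and was not called. The part of such cells in the killing genes was not tested. In bulk RNA, more cells of a type and more RNA per cell cannot be told apart.

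Inhibitory receptors rose in 13 of 19 genes and fell in 2, with a median of 0.228. Entpd1, the ectoenzyme CD39, was at 718, 741, 738 and 706 reads in fresh medium and at 1022, 1037, 1042 and 1044 in supernatant, a log2 change of 0.51 ± 0.05 (SE) with a limma adjusted p of 2.8e-10. Klrc1 and Klrd1, the NKG2A and CD94 subunits of 1 receptor, changed by 0.51 and 0.42. Pdcd1, which encodes PD-1, was at 1177, 1142, 1258 and 1225 reads in fresh medium and at 1554, 1403, 1493 and 1476 in supernatant, a log2 change of 0.30 without overlap. Chosen after their values were seen, Lag3, Tigit, Havcr2 and Ctla4 had changes of 0.42, 0.34, 0.31 and 0.19. Btla was the largest fall of the list, from 2221 to 2326 reads in fresh medium down to 1805 to 1858 in supernatant.

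Costimulatory receptors were called higher in 8 of 18 genes and lower in 1. Tnfrsf4, the OX40 gene, had 3840 to 3996 reads in fresh medium and 4705 to 5035 in supernatant, and Tnfrsf9, the 4-1BB gene, changed by 0.30. The single fall was Cd80, a CD28 ligand, at 1591, 1487, 1466 and 1508 reads in fresh medium and 1024, 1112, 1160 and 1018 in supernatant (log2 change -0.49), and without fresh-medium library 3 there were 2 falls. Among 20 T cell receptor subunits and proximal kinases, 13 rose and none fell, with a median of 0.108. Plcg1, the phospholipase that follows receptor signalling, changed by 0.31, Cd8a by 0.28 and Cd3g by 0.27. Cd3e had 5703 to 6062 reads in all 8 libraries and was not called.

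Several genes linked to TGF-beta rose. In the list 9 of 18 genes rose and 2 fell, with a median of 0.119, and 9 and 3 without supernatant library 1. Pmepa1, a feedback inhibitor of SMAD signalling, was at 643, 663, 659 and 607 reads in fresh medium and at 1135, 1198, 1236 and 1414 in supernatant. The log2 change was 0.95 ± 0.06 (SE), with a limma adjusted p of 2.8e-14. Skil, the SnoN repressor, was at 4169, 4459, 4040.0 and 4044 reads in fresh medium and at 6331, 6083, 6633 and 6953 in supernatant, a log2 change of 0.64 (limma adjusted p = 8.9e-15). Itgae, the CD103 integrin of tissue-resident T cells, was at 301, 378, 295 and 276 reads in fresh medium and at 533, 524, 602 and 606 in supernatant, a log2 change of 0.86 (limma adjusted p = 5.1e-10). Smad7, the inhibitory SMAD, changed by 0.24, and Smad3, a signal transducer, by -0.24. Of the receptors, which were chosen after their values were seen, Tgfbr2 changed by 0.22 and Tgfbr1 by -0.20.

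Homing receptors rose in 14 of 24 tested genes and fell in 1, Cxcr4. Itga1, the CD49a chain that pairs with integrin beta 1, was at 46.6, 44.5, 45.5 and 44.9 reads in fresh medium and at 90.9, 76.2, 98.6 and 106 in supernatant, a log2 change of 1.01 ± 0.15 (SE) with a limma adjusted p of 4.2e-06. Ccr8 and Ccr2, chemokine receptors, had changes of 0.70 and 0.38. In these 3 genes the supernatant libraries all lay above those of fresh medium.

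Other signalling genes gave a mixed picture. Of 23 genes of cyclic AMP and G protein signalling, 10 rose and 3 fell. Rgs1, which ends G protein signals, was at 10226, 10626, 10201 and 10979 reads in fresh medium and at 17096, 16755, 17962 and 17107 in supernatant. Its log2 change was 0.71 ± 0.03 (SE), with a limma adjusted p of 1.6e-18. Rgs16, of the same family, changed by 0.74. Dusp2, a phosphatase of MAP kinases, had 3324 to 3583 reads in fresh medium and 5038 to 5762 in supernatant, within a list of 14 in which 4 rose and 2 fell, or 1 without fresh-medium library 0, 2 or 3 or supernatant library 0 or 2. In the NF-kB list, 3 of 20 genes rose and 7 fell, with Relb and Nfkb2 at -0.28 and -0.22. Interferon response genes were called higher in 10 of 45 (6 without supernatant library 2) and lower in 6, with Isg20 at 0.56, Iigp1 at 0.43 and Mx1 at -0.37. NR4A, EGR, NFAT and TOX factors held 3 rises and 1 fall among 14 genes.

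Among effector and memory transcription factors 8 of 27 rose and 3 fell, or 1 without fresh-medium library 0 or 1 or supernatant library 3. Irf8 was at 1114, 1057, 1068 and 1022 reads in fresh medium and at 1617, 1697, 1765 and 1843 in supernatant, a log2 change of 0.70 ± 0.04 (SE), with a limma adjusted p of 1.3e-13. Eomes, a T-box factor of memory and exhausted cells, had 1178 to 1360.0 reads in fresh medium and 1749 to 1902 in supernatant, and Irf4 and Prdm1 each changed by 0.24. Neither Tbx21 nor Tcf7, chosen after their values were seen, was called, with log2 changes of 0.06 and -0.03.

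Genes around interleukin-2 and STAT5 were often called higher, mostly by small amounts. Of 11 genes of the receptor, JAK and STAT5 list, 8 rose and none fell, with a median of 0.114. Among the rises was Il2ra, a call lost without any 1 of fresh-medium libraries 1, 2 and 3 or supernatant libraries 0, 1 and 2. Il2rb, the beta chain of the receptor, was at 45616, 45164, 46036 and 43841 reads in fresh medium and at 55287, 57850.0, 53441 and 53418 in supernatant, a log2 change of 0.28. Stat5a and Stat5b were at 2730.3 to 3003 and 3786 to 3974 reads over the 8 libraries and were not called. Among 18 target and feedback genes, 9 rose and 1 fell. The fall, that of Socs3, was not called without any 1 of fresh-medium libraries 0, 1 and 2 or supernatant libraries 0, 1 and 2, and without supernatant library 1 there were 2 falls. Pim2, a survival kinase, changed by 0.26, while Cish, the feedback inhibitor of the receptor, changed by 0.12, with supernatant library 0 at 19874 reads next to fresh-medium library 0 at 19875.

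The promoter windows of Lta, Tnfrsf4 and Gzmb are shown because these members were among those with the largest changes of the list. They are the 250 bases before the RefSeq start in GRCm38.p6, and capitals mark matches to the STAT letters TTCNNNGAA, which read alike on both strands. Lta (chr17:35205352-35205601, minus strand) has 2, at 152 and 16 bases before the start, and Tnfrsf4 (chr4:156013445-156013694, plus strand) and Gzmb (chr14:56262335-56262584, minus strand) have 0. For Tnfrsf4 and Gzmb the RefSeq start lies upstream of the gene bounds of GENCODE vM21.
Lta: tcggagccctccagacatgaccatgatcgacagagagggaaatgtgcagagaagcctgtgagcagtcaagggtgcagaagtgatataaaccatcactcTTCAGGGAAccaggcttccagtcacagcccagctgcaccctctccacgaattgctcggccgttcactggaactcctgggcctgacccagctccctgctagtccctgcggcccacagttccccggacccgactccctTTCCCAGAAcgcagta
Tnfrsf4: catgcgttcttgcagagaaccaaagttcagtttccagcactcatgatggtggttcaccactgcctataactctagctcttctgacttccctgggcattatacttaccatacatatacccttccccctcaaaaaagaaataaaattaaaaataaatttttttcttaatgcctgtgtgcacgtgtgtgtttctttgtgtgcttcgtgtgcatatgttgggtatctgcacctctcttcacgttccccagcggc
Gzmb: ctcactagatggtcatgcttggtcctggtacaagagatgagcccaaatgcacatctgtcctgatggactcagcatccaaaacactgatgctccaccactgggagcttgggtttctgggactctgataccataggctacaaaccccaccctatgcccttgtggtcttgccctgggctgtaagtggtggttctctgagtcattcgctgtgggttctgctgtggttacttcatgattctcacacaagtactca
The letters occur in 3 of 15 genes of the list with a window (20%), Bcl6, Lta and Socs3, against 8.13% of all genes with one and 7.31% of tested ones. The share describes the genes listed and not the change between the media. Windows without a match say only that these letters are not in those bases.

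Methionine-related genes were close between the 2 media. Mat2a, which makes S-adenosylmethionine, was at 34711, 36002, 35866 and 35085 reads in fresh medium and at 36170, 35857, 36007 and 35008 in supernatant, and its log2 difference of 0.01 was not called. Slc43a2, a carrier of large neutral amino acids including methionine, was at 994 to 1057 reads in fresh medium and 966 to 1057 in supernatant. Dot1l, a histone H3 lysine methyltransferase, had 3948 to 4378 reads over the 8 libraries and was not called. Of 13 genes of the methionine cycle, 2 rose and 1 fell, namely Adi1 at 0.20, Mtrr at 0.16 and Enoph1 at -0.20. Polyamine genes held 1 rise and 2 falls among 11, with Srm, spermidine synthase, at 0.14 and Odc1 at -0.08. The rises were 2 without fresh-medium library 3 or supernatant library 1 or 3.

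The amino acid response changed in both directions. In the ATF4 list 14 of 34 genes rose and 6 fell, with a median of 0.0715. Asns, asparagine synthetase, was at 8070, 8069, 7849 and 8125 reads in fresh medium and at 9498, 9473, 9535 and 9176 in supernatant, a log2 change of 0.23 ± 0.03 (SE) with a limma adjusted p of 1.5e-08. Ddit3, the CHOP gene, was at 3613, 3796, 3706 and 3819 reads in fresh medium and at 3322, 3431, 3204 and 3294 in supernatant, so that all supernatant libraries were lower, and its log2 value fell by 0.17 (limma adjusted p = 5.9e-05). Vldlr, a lipoprotein receptor, and Cth, which makes cysteine, had changes of 0.85 and 0.80 at levels under 110 reads, and Cbs, the enzyme before Cth in the same route, one of -1.01 at levels under 80 reads. Amino acid transporters held 5 rises and 1 fall among 18 genes (2 falls without supernatant library 1), with Slc7a3, a cationic carrier, at 0.19, Slc1a5 at 0.13 and Slc3a2 at -0.12. In serine and folate metabolism 4 of 14 rose and 2 fell.

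Ribosome biogenesis genes rose in 14 of 30 and fell in 3, by at most 0.20 in either direction. Myc, which drives many of them, had a log2 change of 0.10 that was not called without fresh-medium library 2, and the Myc and Max network held 2 rises and 1 fall among 10 genes, with 1 rise without fresh-medium library 2 and 2 falls without supernatant library 1 or 3. In the unfolded protein response 7 of 20 rose and 2 fell (1 without fresh-medium library 1 or 2 or supernatant library 2), with Xbp1 and Hspa5 at 0.33 and 0.28. The NRF2 list held 7 rises and 1 fall among 23 genes (3 falls without supernatant library 1), with Osgin1 at 0.53 and Nfe2l2 itself at -0.19. Metal and iron genes held 3 rises and no fall among 12, with the transferrin receptor Tfrc at 0.32. Rises and falls numbered 2 and 2 of 13 in heat shock, 3 and 3 of 27 in autophagy, 2 and 2 of 10 in the glucocorticoid list, 1 and 0 of 6 in the retinoid list and 1 and 3 of 6 in the aryl hydrocarbon receptor list. In heat shock there were 5 rises without fresh-medium library 3, and 1 fall without it or supernatant library 3. In autophagy no gene rose without fresh-medium library 1, and 1 did without fresh-medium library 3 or supernatant library 0. The glucocorticoid list held 4 falls without supernatant library 1. In the aryl hydrocarbon receptor list no gene rose without supernatant library 2, and 1 fell without fresh-medium library 1 or 2 or supernatant library 0 or 2. Cyp1b1, a target of that receptor, had 39.1 to 62.7 reads in fresh medium and 19.9 to 25.1 in supernatant.

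Among genes averaging 100 reads or more whose groups did not overlap, with predicted genes, small RNAs and pseudogenes again left out, several of the largest changes lay outside the lists. Oplah, which hydrolyses 5-oxoproline in glutathione turnover, was at 84.2, 97.9, 71.9 and 97.9 reads in fresh medium and at 237, 262, 306 and 316 in supernatant, a log2 change of 1.66 ± 0.12 (SE) with a limma adjusted p of 1.3e-12. Slc4a4, a sodium bicarbonate cotransporter, was at 218, 214, 168 and 208 reads in fresh medium and at 602, 508, 593 and 595 in supernatant, a log2 change of 1.51 ± 0.08 (SE), with a limma adjusted p of 6.1e-15. In both, every supernatant library lay far above the highest fresh-medium library. Smyd3, a lysine methyltransferase, was at 296, 308, 308 and 289 reads in fresh medium and at 621, 578, 622 and 590.3 in supernatant, a log2 change of 1.0. Adora3, an adenosine receptor, D18Ertd653e, Slc27a6, a fatty acid transporter, Aqp3, a water and glycerol channel, and Slc15a1, a peptide transporter, were also among the 12 largest of these rises, with log2 changes of 0.92 to 1.07.

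Among the same genes the largest falls were smaller than the largest rises. Zfp750, a zinc finger factor, was at 917, 874, 819.8 and 865 reads in fresh medium and at 465, 519.5, 532 and 473 in supernatant, a log2 change of -0.80 ± 0.06 (SE) with a limma adjusted p of 2.0e-12. Hic1, a transcriptional repressor, was at 1574, 1418, 1477 and 1436 reads in fresh medium and at 798, 984, 854 and 819 in supernatant, a log2 change of -0.78. Arc, an immediate early gene, had 665 to 775 reads in fresh medium and 433 to 505 in supernatant. Arhgap23, Micall2, Celf5, Cd209c, Ckmt1, Prx, Dennd2c and Mcam had log2 changes of -0.79 to -0.64. Supernatant library 1 was the highest supernatant library for Zfp750's companions Arhgap23, at 104 reads, and Micall2, at 141, whose groups still did not overlap.

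**Figure D4:**
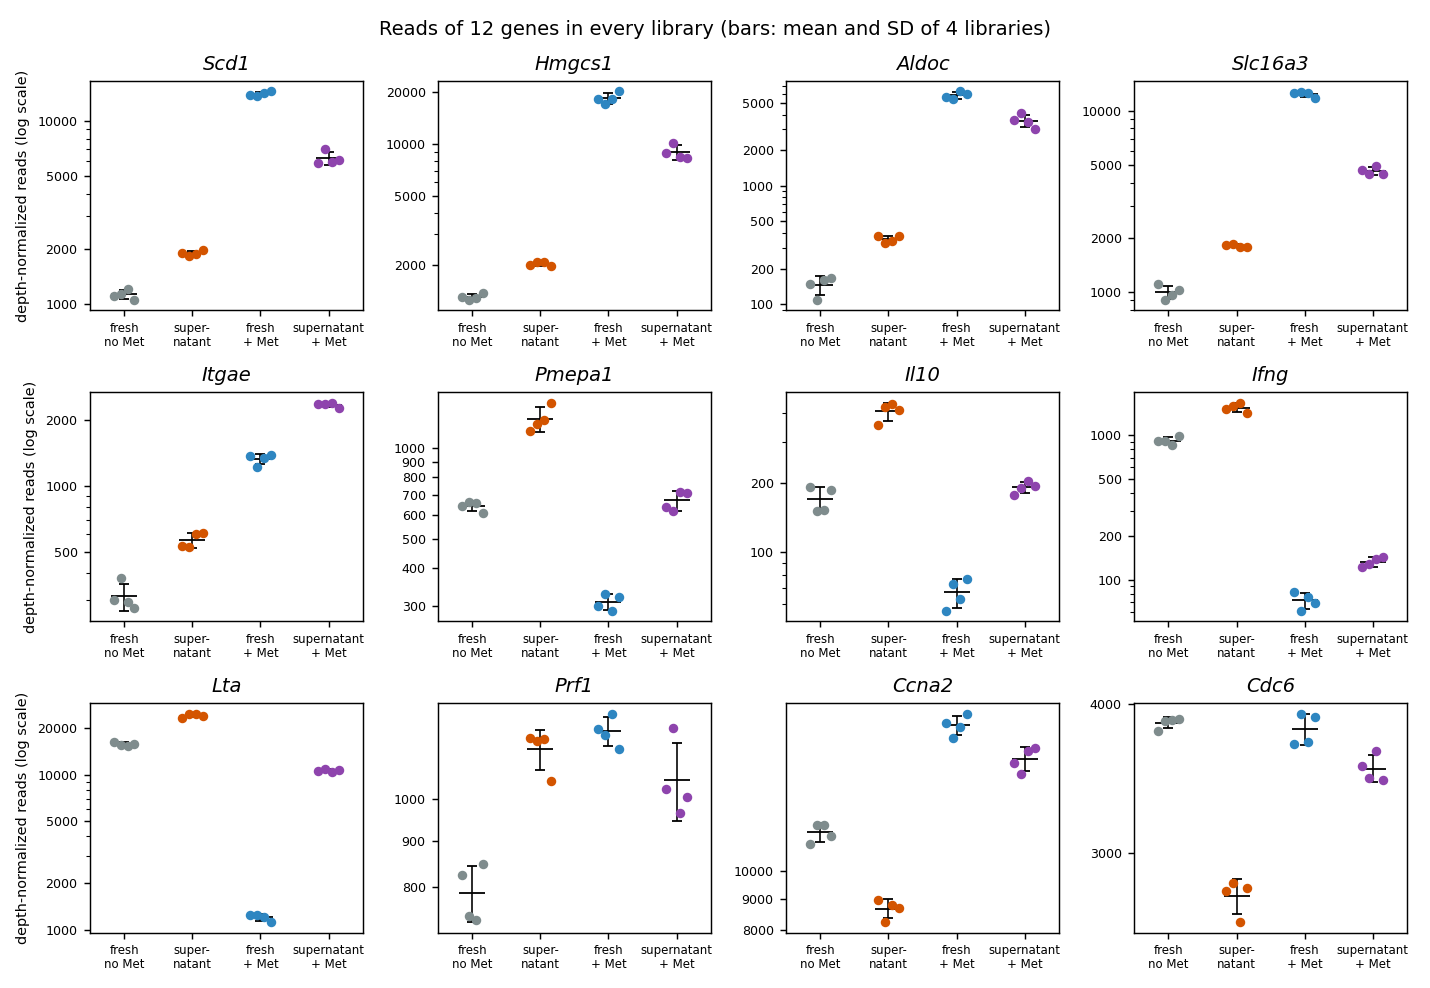
Points are the depth-normalized reads of 12 genes in each of 4 libraries per medium, on log axes that do not start at 0, with the mean and SD as bars. Scd1, Hmgcs1, Aldoc and Slc16a3 rise from methionine-free fresh medium to supernatant yet stay far below both media with methionine, while Lta and Ifng are highest in supernatant.

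The same contrast of supernatant with fresh medium exists with methionine, in 8 other libraries. The test of the difference of the 2 effects shows where the comparison without added methionine stands apart. With methionine, 7798 of the same genes were called (62.7%), 31.3% of all genes tested higher and 31.4% lower. The difference was called in 6516 genes (52.4%). Of the 1952 genes higher in supernatant without added methionine, 885 (45.3% of them, and 22.7% of those higher with methionine) were also higher with it, 585 (30.0%) were lower with it and 482 were not called. Of the 1872 lower genes, 884 (47.2%, and 22.6% of those lower with methionine) were also lower and 374 (20%) were higher. Across the 12438 genes the 2 effects correlated weakly (Pearson 0.188, Spearman 0.165), a description over genes, which are not independent.

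Sterol and glycolytic genes had opposite signs in the 2 comparisons. With methionine 23 of the 24 cholesterol genes fell and none rose (median -0.563), and the difference was called in all 24. Hmgcs1 was at a mean of 18349 reads in complete fresh medium and 8934 in supplemented supernatant, a log2 change of -1.04. Without added methionine the change was 0.64, and the difference of 1.68 had a limma adjusted p of 3.7e-20. Of the glycolysis genes 19 of 20 fell with methionine, with a median of -0.705, and the difference was called in 19. Slc16a3 fell by 1.41 with methionine, to 4646 from 12332 reads, and the difference was 2.26. In the hypoxia list 16 of 19 fell with methionine and 1 rose, and the difference was called in 17, with Ak4 at 2.22.

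Cell division genes had the same sign in both. With methionine 22 of 23 mitosis genes fell (median -0.331), and the difference was called in 12 of 23. For Birc5 the changes were -0.47 without added methionine and -0.38 with it, a called difference of -0.09 (limma adjusted p = 0.049). For Kif11 they were -0.41 and -0.35, and that difference was not called (limma adjusted p = 0.32). DNA replication genes fell in 19 of 25 with methionine and rose in 2, and the difference was called in 16. The p53 list, 15 of 20 lower without added methionine, held 6 rises and 8 falls with it, and the difference was called in 16 genes.

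In the TGF-beta list 9 of 18 genes rose and 6 fell with methionine (median 0.0539), and the difference was called in 10. With methionine the log2 changes of Pmepa1, Itgae and Skil were 1.11, 0.83 and 0.59, and their differences of -0.16, 0.04 and 0.04 were not called (limma adjusted p of 0.14, 0.77 and 0.56). The SEs of these differences were 0.09, 0.10 and 0.06. Il10 changed by 1.5 and Ifng by 0.89 with methionine, and their differences were not called either. For Lta the change with methionine was 3.14 and the difference -2.53. Killing and inhibitory genes split with methionine: 7 of 18 rose and 6 fell in the killing list with methionine, 5 of 19 rose and 11 fell among inhibitory receptors, and the difference was called in 11 and 15 genes. Prf1 and Pdcd1 changed by -0.18 and -0.64 with methionine, differences of 0.71 and 0.94.

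Amino acid response genes were higher in supernatant with methionine. In the ATF4 list 32 of 34 genes rose with methionine, with a median of 0.985, and the difference was called in 33. Nupr1, a stress-induced cofactor, had 489 to 592 reads in the 8 libraries without added methionine. Its mean was 91.1 in complete fresh medium and 1049 in supplemented supernatant, and its difference of the 2 effects was -3.58. Aldh1l2, the mitochondrial folate enzyme, and Angptl6 had differences of -3.04 and -3.46, and Cox6a2, a complex IV subunit, one of -5.70. Asns and Ddit3 had differences of -1.05 and -2.02, and Mat2a one of -0.77.

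**Figure D5:**
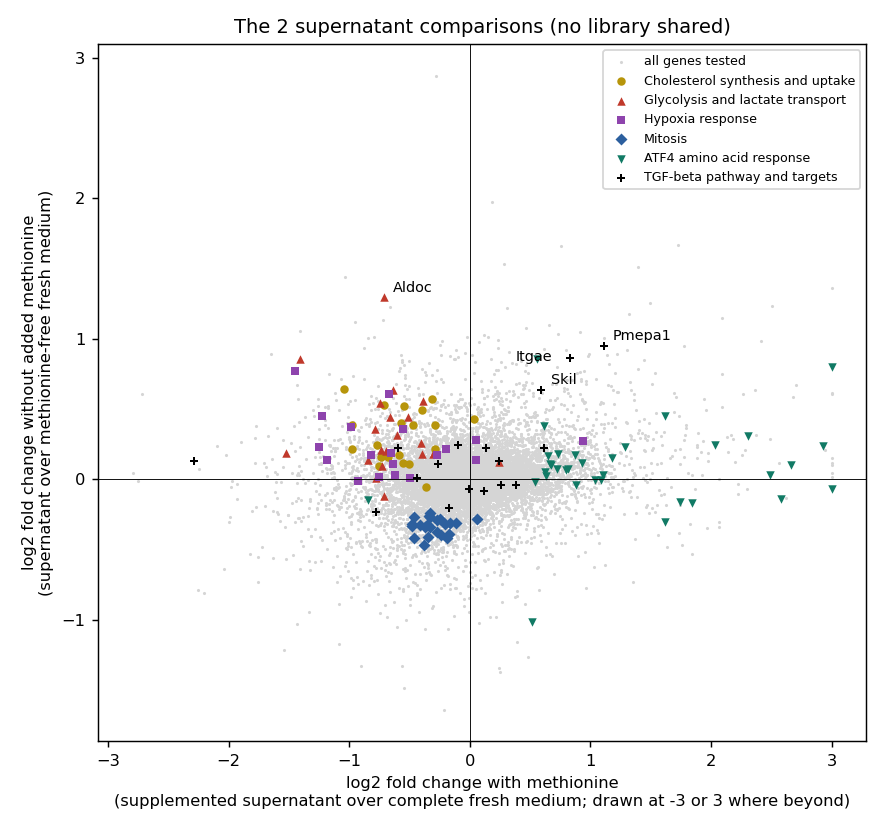
Each point is a gene, with the log2 fold change of supplemented supernatant over complete fresh medium on the horizontal axis and that of supernatant over methionine-free fresh medium on the vertical axis, from separate libraries, and members of 6 lists are coloured, leaving out those not reported here. Cholesterol, glycolysis and hypoxia genes lie at the upper left, mitosis genes at the lower left, and Pmepa1, Itgae and Skil at the upper right. ATF4 genes lie mostly along the right around 0 on the vertical axis, with Cbs, Vldlr and Cth further from it.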

How the data were processed

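The authors deposited a table of depth-normalized counts, a signal per gene and library whose values are whole reads divided by 1 factor per library, and a table of FPKM (23107 rows, 12421 of the tested genes matched by symbol). The submitters' processing notes name Cuffdiff 2.2.1, Cufflinks, Bowtie2 2.2.1, TopHat2 2.0.13 and FastQC 0.11.3, and the builds mm10 and GRCm38. Counting tool and strand setting are not given in the sources used here, so antisense and overlapping genes can share reads. From the values, whole reads came out for 100% of values within 0.001 of a read. The value of 1 read in library 1 of methionine-free fresh medium could not be told from a rounded normalized unit, so count tests ran on the other 15 libraries.

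Values were taken as log2(signal + 1). The 8 libraries were fitted in limma 3.58.1 under R 4.3.3, using a trend of variance on mean. Tests were two-sided, with Benjamini-Hochberg adjustment over 12438 genes and calls below 0.05. Fold changes are on the log2(value + 1) scale and understate those of low genes. Differences between the 2 supernatant effects came from a limma fit to all 16 libraries. The scripts were tested on simulated data. Pairs of libraries of 1 group had a mean chi-square per gene of 2.58 to 5.73, above counting error, so no library was a copy of another. Both ends of that range came from pairs with library 1 of methionine-free fresh medium, whose read unit is uncertain. The mean depth of that medium includes this library too. Alternatives were other pseudocounts, filters and scalings, edgeR 4.0.16 and DESeq2 1.42.0 on recovered reads, the FPKM table, a replicate block and leaving out each library.

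Named are the 12 highest and 12 lowest called changes where the groups did not overlap and the mean reached 100 (predicted genes, small RNAs and pseudogenes left out), up to 4 called genes per list with the largest change and 1 against its majority, fixed genes, and the 4 highest and 4 lowest differences. The comparison, its genes and the lists were chosen with earlier results of these data known. Some genes are not reported here, though the counts and medians include them. Lists are described by counts and medians, with no set test. Some lists share genes, such as Lta in the cytokine and STAT5 target lists and Bbc3 in the p53 and BCL2 lists. Their counts are therefore not independent. Coordinates are from GENCODE vM21 (GRCm38), and promoter windows from RefSeq (GRCm38.p6). Residuals of same-numbered libraries of the 2 media correlated at -0.0817 to -0.011 in the depth-normalized table, but at 0.674 to 0.923 in the FPKM table. Whether same-numbered libraries are paired is therefore not known, and the main fit holds no replicate term.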

Additional observations from a re-analysis of the deposited data

Results flagged for a closer look

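In 15 cases 1 of the 4 libraries of a medium stood far from the other 3 for a named gene, by Dixon's criterion at its 95% level, which chance meets in about 1 of 20 groups. The criterion was applied to 216 named genes in both media, so chance alone would give about this many cases or more. The lowest supernatant library stood apart, in depth-normalized reads, for Slc4a4 at 507.8, Slc43a2 at 966.3, Prf1 at 1046.0, Btla at 1805.0, Smpdl3a at 815.0, Dlst at 6078.0. The lowest methionine-free fresh medium library stood apart, in depth-normalized reads, for Micall2 at 143.8, Ccr8 at 43.84, Nab2 at 1428.0, Klf2 at 476.6, Mvd at 333.1, Cdc6 at 3801.0. The highest supernatant library stood apart, in depth-normalized reads, for Adora3 at 263.2, Cd209c at 330.5, Pmaip1 at 2102.0.

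The supernatant effect differed between the media without and with added methionine, by the interaction test in limma, in 6516 of the genes tested. A value above 0 can come from a larger rise, a smaller fall, or a rise without added methionine against a fall with it. On the log2 scale, the effect without added methionine minus that with it was above 0 for Oplah 0.907, Aldoc 2.01, D18Ertd653e 0.607, Slc27a6 1.2, Dennd2c 0.677, Cd4 0.477, Slc43a2 0.626, Stat5a 0.206, Stat5b 0.341, Prf1 0.709, Pdcd1 0.942, Slc16a3 2.26, Ak4 2.22, Fam71f2 2.08. A value below 0 can come from a smaller rise, a larger fall, or a fall without added methionine against a rise with it. The effect difference was below 0 for Adora3 -1.43, Slc15a1 -0.386, E2f7 -0.224, Prx -0.386, Cd8a -0.226, Mat2a -0.771, Dot1l -0.202, Il2ra -0.539, Cish -1.39, Bcl2 -0.63, Tnf -1.66, Lta -2.53, Asns -1.05, Ddit3 -2.02, Myc -0.838, Cox6a2 -5.7, Nupr1 -3.58, Angptl6 -3.46, Aldh1l2 -3.04. No cause was tested for any of these.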

How the results depend on the processing

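The 3824 calls became 3817 and 3833 with pseudocounts of 0.5 and 5, 3519 with no filter, 3816 with a mean of at least 50, 3891 when scaled to total reads, 3792 after quantile normalization, 3457 with edgeR, 3191 with DESeq2 and 3332 in 1 fit of 16 libraries. Scaling to total reads moved the share of higher calls from 51.0% to 43.9%. A replicate block gave 3292 calls, 3283 of them shared, and no paired design is stated; 16 of 207 called genes named here lost their call under it, among them Odc1, Ccl22, Tyr, Col1a2 and Socs3. Leaving out each library gave 3283 to 4021 calls (1688 to 2034 higher, 1595 to 1987 lower), 7298 to 7548 for the comparison with methionine and 6211 to 6468 for the difference.

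The FPKM table, whose same-numbered libraries of the 2 media correlated at 0.674 to 0.923 in their residuals, gave 1 call (1 higher and 0 lower), with 668 genes at an unadjusted p below 0.05. With a replicate block it gave 685 (313 higher, 372 lower), 666 of them shared. Of the 207 called genes named here, 206 lost their call in the FPKM table without the block and 110 with it. Asns, Bbc3, Gzmb and Tnf were among those lost in both. No mitosis gene was called there, and 19 of 23 were called lower with the block; medians were -0.353 for mitosis, -0.316 for replication, 0.221 for glycolysis, 0.227 for cholesterol and -0.206 for p53 targets. Medians changed sign there for chemokines (0.0579 to -0.0348), fibroblast and erythroid markers (-0.196 to 0.00608), and the interferon, LXR, Myc, heat shock and oxidative phosphorylation lists. With methionine the FPKM table gave 2229 calls (1042 higher, 1187 lower), or 6999 with the block (3178 higher, 3821 lower), and for the difference 883 (503 higher, 380 lower), or 4180 with the block (2095 lower). The cause was not tested.

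The count of called genes at least 2-fold apart, 44, was 21 with a pseudocount of 5, 149 with no filter, 13 with a mean of at least 50, 84 after quantile normalization, 1 in FPKM and 3 in FPKM with the block, and 41 to 54 when a library was left out. The medians of oxidative phosphorylation, heat shock, BCL2 and retinoid genes changed sign when scaled to total reads, and those of heat shock and BCL2 genes after quantile normalization. No named gene reversed. Il2ra lost its call without any 1 of fresh-medium libraries 1, 2 and 3 and supernatant libraries 0, 1 and 2.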
